A study of Mus musculus with 42 samples.

Results

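The genes described are 5 regulators of G protein signalling, Rgs1, Rgs2, Rgs3, Rgs10 and Rgs16, chosen by name. They were found by matching each symbol to the platform's gene table and keeping, for each, the transcript cluster (the probe group that reads 1 gene) with the highest mean. This gave clusters for 4 of the 5 genes, out of 19752 symbols in all. Rgs10 had no cluster carrying its symbol alone and was not analysed here. All 4 measured genes passed the filter on low values, as did 12425 genes in all.

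RNA was measured on Affymetrix ST1.0 gene arrays, 42 in 22 groups, from spleen CD4+ T cells of diabetes-prone NOD mice. All mice carried Foxp3-IRES-GFP, in which a green protein reports Foxp3, the master regulator of regulatory T cells (Treg). Conventional T cells (Tconv) were sorted as GFP-. The stimulus was KT3, an antibody to CD3, through which the T cell receptor signals. In vivo, cells came from untreated mice (0 h) or from mice 2, 8, 24 and 72 h after intravenous KT3, all females of 8 weeks, with 2 arrays for each cell type and time. One more array per cell type came from a mouse 24 h after rat IgG, the control antibody. In vitro, splenocytes of mice given as Foxp3-IREs-GFP+/+ were cultured with KT3 at 1.25 µg/ml for 0, 2, 8, 24 or 72 h, again with 2 arrays per group. There the arrays numbered 1 came from females of 9 weeks and those numbered 2 from males of 14 weeks. Sex and age therefore cannot be told apart from array number in culture. The cultured cells are given as splenocytes, a mixture of spleen cells and not T cells alone.

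RGS proteins end signals from G protein-coupled receptors. Such a receptor, for instance a chemokine receptor, loads GTP onto a G protein alpha subunit, and RGS proteins speed up the hydrolysis of that GTP, which returns the G protein to its resting state. In lymphocytes Rgs1 is known to dampen chemokine-driven migration, Rgs16 and Rgs3 act on Gi and Gq proteins, and Rgs2 acts chiefly on Gq. Rgs10 is a small family member that acts on Gi proteins.

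The 2 h response of Rgs2 differed between mice and culture, though leaving out some single arrays ended this result. That of Rgs16 at 8 h differed between the cell types. The upstream sequences of these genes are therefore shown. The promoter windows below are the 250 bases before each gene's start in RefSeq (GRCm38.p6), where 4 of the 5 genes had an entry. Capitals mark matches on either strand to 8 short motifs. These were CRE (TGACGTCA), its short form (TGACG, which lies within the full CRE), AP-1 (TGANTCA), the NFAT core (GGAAA), Egr (GCGNGGGCG), the CCAAT box (CCAAT), the TATA box (TATAAA) and NF-kB.
Rgs2, chr1:144004150-144004399, minus strand, 5′ to 3′: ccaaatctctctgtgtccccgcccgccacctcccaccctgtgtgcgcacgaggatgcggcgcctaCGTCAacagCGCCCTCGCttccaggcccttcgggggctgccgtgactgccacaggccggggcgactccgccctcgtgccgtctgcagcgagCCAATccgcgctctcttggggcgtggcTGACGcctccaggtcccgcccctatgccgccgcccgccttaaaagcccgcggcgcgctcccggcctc
Rgs16, chr1:153740103-153740352, plus strand, 5′ to 3′: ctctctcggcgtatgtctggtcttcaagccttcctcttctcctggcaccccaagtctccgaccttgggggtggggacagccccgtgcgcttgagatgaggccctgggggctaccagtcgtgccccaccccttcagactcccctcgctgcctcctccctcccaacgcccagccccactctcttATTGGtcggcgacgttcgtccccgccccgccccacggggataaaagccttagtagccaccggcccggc
The Rgs2 window held 72.4% G and C, against a median of 52.4% over 32851 promoters. It had the short CRE at -185 to -181 (on the opposite strand) and at -67 to -63, counted from the gene's start. It also had the Egr motif at -176 to -168 (opposite strand) and a CCAAT box at -94 to -90. In the Rgs16 window, with 66.4% G and C, the only match was a CCAAT box at -68 to -64 on the opposite strand. Of all promoters of this length, 17.8% held the short CRE, 4.7% the Egr motif and 33.8% a CCAAT box. The full CRE was in 1.55%, AP-1 in 6.75%, the NFAT core in 55.6%, the TATA box in 12.4% and NF-kB in 7.25%, and none of these letters were in either window. These matches are descriptions of letters and not sites shown to be bound. On chromosome 1, Rgs2, Rgs13, Rgs1, Rgs21 and Rgs18 are consecutive coding genes, and Rgs8 lies next to Rgs16.

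Values are log2 of the deposited intensity, where 1 unit is a doubling, and levels are compared between groups for 1 gene, not between genes. Array medians lay between 6.45 and 6.86 on this scale. Differences are given ± SE from 1 limma model of all arrays (n = 2 per group unless said), and a gene was called at a Benjamini-Hochberg adjusted p under 0.05, with all 12425 tested genes in the adjustment. That the arrays of 1 in vivo group came from different mice is not stated. A p-value then reflects no more than the spread of these samples, and part of that may be technical. Whether the arrays of 2 groups overlap is a description of at most 2 arrays against 2, and not a test. The share of all genes without overlap is not given. In sorted bulk cells, fewer expressing cells and less RNA per cell cannot be told apart. Cd4 (10.41 to 11.84) and Cd3e (10.42 to 11.89) were high on every array. Foxp3 was 11.30 to 12.34 in Treg and 7.02 to 8.20 in Tconv, although the labels give the gate of the in vitro Treg as GFP-. In vitro, the Tconv 0 h array numbered 1 stood apart, with an interquartile range of 1.645 log2 units against 2.097 or more on the others. It enters every in vitro Tconv response. The median over all genes of that response was 0.23 at 24 h and 0.15 at 72 h, and of Treg minus Tconv at 0 h in vitro 0.18. In the other responses and cell type differences it lay within 0.07 of 0. Median centring moved this median to 0.24, 0.15, 0.40 and 0.29 for the Tconv responses in vitro at 2, 8, 24 and 72 h. In each of the 10 in vivo groups, B cell (4 markers), macrophage (5), neutrophil (5) and platelet (4) markers were higher on array number 1 than on number 2. CD8 T cell markers were too, by 0.32 to 0.96, and plasma cell markers in 9 of the 10 groups. NK cell markers and the 1 erythroid marker measured were higher on number 1 in 4 of 5 groups of each cell type. Dendritic cell markers showed little such shift. They were higher in 4 of 5 Tconv groups (-0.00 to 0.26) and 2 of 5 Treg groups (-0.16 to 0.49). The labels give 9 of the 10 arrays numbered 1 as single sorted and 8 of those numbered 2 as double sorted. In Tconv at 8 h in vivo number 1 was the double sorted array and number 2 the single sorted one. In Treg at 24 h in vivo both were single sorted. B cell markers were higher on number 1 in these groups too, by 1.44 and 1.24. Plasma cell markers in Treg at 24 h were not (-0.05). The part of the sort in the marker differences was not tested.

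**Figure D1:**
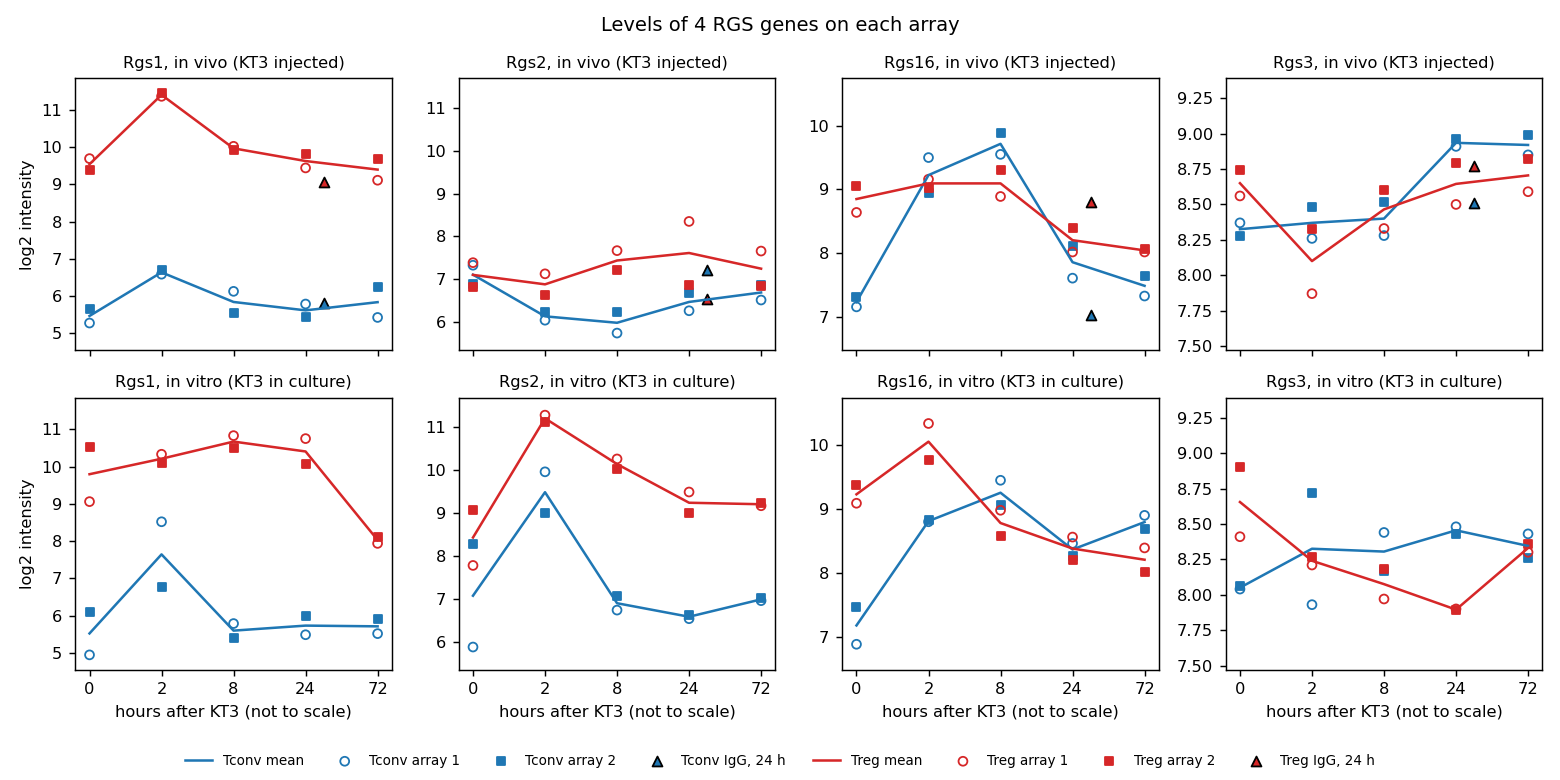
Log2 intensity (vertical axis) of Rgs1, Rgs2, Rgs16 and Rgs3 on each array by hours after KT3 (horizontal axis, evenly spaced), in vivo above and in vitro below. Lines join group means, open circles are arrays numbered 1, filled squares those numbered 2, and triangles the single IgG arrays; Rgs1 in Treg lies above Rgs1 in Tconv throughout, and Rgs2 peaks at 2 h in culture but not in mice.

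Rgs1 was far higher in Treg than in Tconv at every time in both settings. It rose at 2 h in Treg in vivo and in Tconv in vitro, and the 2 h difference was not called in Tconv in vivo or in Treg in vitro. Before KT3 in vivo it stood at 9.69 and 9.39 in Treg and at 5.28 and 5.66 in Tconv, a difference of 4.07 ± 0.45 (adjusted p = 1.17e-06, limma). Both Tconv arrays lay under their array medians of 6.69 and 6.61, where low levels are compressed, so no fold is given. At 2 h in vivo the Treg arrays read 11.36 and 11.44 and the Tconv arrays 6.59 and 6.69. At 8 h they read 10.02 and 9.91 in Treg and 6.13 and 5.56 in Tconv. At 24 h they were 9.44 and 9.81 against 5.79 and 5.45, and at 72 h 9.11 and 9.68 against 5.43 and 6.25. No Treg array overlapped a Tconv array at any time in vivo. The in vivo gap was 4.76 ± 0.45 at 2 h and then between 4.12 at 8 h and 3.56 at 72 h, and all were called with any single array left out. Of all genes, Treg and Tconv differed by call in 3.1% at 0 h, 3.45% at 2 h, 4.27% at 8 h, 3.2% at 24 h and 3.6% at 72 h in vivo. Of the 4 RGS genes, Rgs1 and Rgs16 were called at 0 h and Rgs1 alone at each later time.

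The in vitro arrays had the same order. Rgs1 stood at 9.06 and 10.53 in Treg and 4.95 and 6.10 in Tconv at 0 h. At 2 h it was 10.33 and 10.09 against 8.52 and 6.77, the time at which the nearest Treg and Tconv arrays lay closest. At 8 h it was 10.83 and 10.51 against 5.79 and 5.41, and at 24 h 10.75 and 10.06 against 5.49 and 5.98. At 72 h it was 7.94 and 8.12 in Treg against 5.52 and 5.91 in Tconv, still without overlap. Treg minus Tconv was 4.27 ± 0.45 at 0 h, 2.57 at 2 h (adjusted p = 0.000624), 5.07 at 8 h, 4.67 at 24 h and 2.32 at 72 h (adjusted p = 0.000963), all called. The 2 h call was lost without the Tconv 2 h array numbered 2 (1.69, adjusted p = 0.0668) and the others held with any array left out. Of all genes, 11.2% were called at 0 h, 3.27% at 2 h, 23.8% at 8 h, 21.3% at 24 h and 10.3% at 72 h in this comparison. Of the 4 RGS genes, 2 were called at each of these 5 times: Rgs1 each time, with Rgs16 at 0 and 2 h and Rgs2 at 8, 24 and 72 h.

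After KT3, Rgs1 in Treg in vivo rose by 1.86 ± 0.45 at 2 h (adjusted p = 0.00972), or 3.62-fold, and both 2 h arrays lay above both 0 h arrays. The call was lost without Treg 2 h number 1 (1.90, adjusted p = 0.098), 2 h number 2 (1.82, adjusted p = 0.0654) or 0 h number 2 (1.71, adjusted p = 0.121). From 2 to 8 h Rgs1 differed by -1.43 (adjusted p = 0.193), which was not called, in a step that called 0.531% of all genes. It was called with the in vivo arrays fitted alone (adjusted p = 0.0176). At 8, 24 and 72 h Rgs1 differed from 0 h by 0.43, 0.08 and -0.15, none called. In Tconv in vivo the 2 h difference was 1.17 ± 0.45 (adjusted p = 0.193), with both 2 h arrays above both 0 h arrays, and it was not called. With the in vivo arrays fitted alone it was (adjusted p = 0.0169). At 2 h the response of Treg minus that of Tconv was 0.68 ± 0.64 (adjusted p = 1), so the responses were not shown to differ. Of all genes, 6.45% were called in Treg at 2 h, 9.67% at 8 h, 0.483% at 24 h and 0.0241% at 72 h; of the 4 RGS genes Rgs1 was called at 2 h and none later.

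In culture Rgs1 in Tconv was 2.12 ± 0.45 higher at 2 h than at 0 h (adjusted p = 0.00208), and by 8 h it had fallen by 2.04 from 2 h (adjusted p = 0.00353, a step in which 9.7% of all genes were called). The rise was not called without Tconv 0 h number 1 (1.54, adjusted p = 0.0956) or 2 h number 1 (1.24, adjusted p = 0.0997). The fall was not called without 2 h number 1 (-1.17, adjusted p = 0.217). In Treg in culture Rgs1 was not called at 2, 8 or 24 h (0.41, 0.88 and 0.61), and its arrays at 0 h read 9.06 and 10.53. Without the second of these the 8 h difference was called (1.62, adjusted p = 0.0367). It then fell by 2.37 between 24 and 72 h (adjusted p = 0.00123, 4.17% of all genes called) and stood 1.76 ± 0.45 under 0 h at 72 h (adjusted p = 0.0116). The step was not called without Treg 24 h number 1 (-2.03, adjusted p = 0.0586). The 72 h call was lost without Treg 0 h number 2 (-1.02, adjusted p = 0.165) or 72 h number 1 (-1.67, adjusted p = 0.118), and with the in vitro arrays fitted alone (adjusted p = 0.0761). In vivo no such fall was seen at 72 h, where both Treg arrays (9.11 and 9.68) lay near those of 0 h. The in vivo minus in vitro difference of the 72 h responses was 1.61 ± 0.64 (adjusted p = 0.328).

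Rgs16 was the member that KT3 moved most steadily in Tconv, while in Treg it began higher than in Tconv and fell by call only in culture, at 24 and 72 h against 0 h. In Tconv in vivo it read 7.16 and 7.31 at 0 h, 9.50 and 8.95 at 2 h and 9.55 and 9.88 at 8 h, with no overlap. It then stood at 7.61 and 8.11 at 24 h and 7.33 and 7.65 at 72 h, near the start. The rise was 2.00 ± 0.26 at 2 h (adjusted p = 1.39e-05), or 3.99-fold, and 2.48 ± 0.26 at 8 h (adjusted p = 2.96e-07), or 5.58-fold. Both calls held with any array left out. Rgs16 fell by 1.85 between 8 and 24 h (adjusted p = 8.78e-06, a step that called 19.4% of all genes). At 24 and 72 h it was 0.63 and 0.26 above 0 h, neither called. Of all genes 3.51% were called in Tconv in vivo at 2 h, 21% at 8 h, 2.4% at 24 h and 0.29% at 72 h, and of the 4 RGS genes Rgs16 alone was called, at 2 and 8 h.

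In Treg in vivo Rgs16 read 8.64 and 9.06 at 0 h, 9.16 and 9.03 at 2 h, 8.89 and 9.30 at 8 h, 8.02 and 8.39 at 24 h and 8.02 and 8.07 at 72 h. The arrays up to 8 h overlapped, and those of 24 and 72 h lay under all of them. No response was called (0.25, 0.24, -0.64 and -0.80 at 2, 8, 24 and 72 h). The fall of 0.89 from 8 to 24 h was called (adjusted p = 0.0442, 4.84% of all genes called), but not with any of the 4 arrays left out (adjusted p up to 0.391). Before KT3 Rgs16 was 1.62 ± 0.26 higher in Treg than in Tconv (adjusted p = 0.000183), a call that held without any array, and at 2 h the difference was -0.13, not called. The response of Treg minus that of Tconv was -2.24 ± 0.36 at 8 h (adjusted p = 0.00349), called with any array left out. It was -1.75 at 2 h (adjusted p = 0.0765), -1.27 at 24 h and -1.06 at 72 h, not called. The 2 h difference was called without Tconv 2 h number 2 (-2.02, adjusted p = 0.0495) and, at the same size, without in vitro Tconv 0 h number 1 (adjusted p = 0.038) or with the array number as a replicate block (adjusted p = 0.0373). Of all genes this difference of responses called 0.0483% at 2 h, 0.233% at 8 h, 0.0644% at 24 h and 0.0161% at 72 h, and of the 4 RGS genes only Rgs16 at 8 h.

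In culture Rgs16 in Tconv stood at 6.88 and 7.47 at 0 h, 8.80 and 8.82 at 2 h, 9.45 and 9.06 at 8 h, 8.46 and 8.27 at 24 h and 8.90 and 8.69 at 72 h. All later arrays lay above both 0 h arrays. It was higher than at 0 h by 1.64 ± 0.26 at 2 h (adjusted p = 9.27e-05), 2.08 at 8 h (adjusted p = 5.25e-06), 1.19 at 24 h (adjusted p = 0.00403) and 1.62 at 72 h (adjusted p = 0.000371). The calls at 2, 8 and 72 h held with any array left out. The 24 h call was lost without Tconv 0 h number 1 (0.89, adjusted p = 0.182) or 24 h number 1 (1.10, adjusted p = 0.052). The step from 8 to 24 h (-0.89, adjusted p = 0.0446, 4.54% of all genes called) was lost without 8 h number 1 (-0.70), 24 h number 1 (-0.99) or 24 h number 2 (-0.80). Of all genes 26.3% were called in Tconv in culture at 2 h, 18.9% at 8 h, 26.8% at 24 h and 7.55% at 72 h. Of the 4 RGS genes 3 were called at 2 h (Rgs1, Rgs2 and Rgs16) and Rgs16 alone at each later time.

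Rgs16 in Treg in culture stood at 9.09 and 9.37 at 0 h and 10.34 and 9.77 at 2 h, a difference of 0.82 ± 0.26 that was not called (adjusted p = 0.0597), though it was without 2 h number 2 (1.11, adjusted p = 0.0428) and with the replicate block (adjusted p = 0.0345). It read 8.98 and 8.58 at 8 h, 8.56 and 8.20 at 24 h and 8.39 and 8.02 at 72 h, all under the 0 h arrays. The fall of 1.27 from 2 to 8 h was called (adjusted p = 0.00279, 4.27% of all genes called), and lost without 2 h number 1 (-0.98) or 8 h number 2 (-1.07). At 24 h Rgs16 was 0.85 under 0 h (adjusted p = 0.0488), a call lost with each of the 4 arrays left out, under median centring (-0.70, adjusted p = 0.121), with no filter (adjusted p = 0.0673) and with the in vitro arrays alone (adjusted p = 0.122), and at 72 h it was 1.03 under (adjusted p = 0.00971). The 72 h call was lost without 0 h number 2 (-0.88, adjusted p = 0.0672) or 72 h number 2 (-0.84, adjusted p = 0.125). Treg minus Tconv went from 2.05 at 0 h (adjusted p = 1.06e-05) and 1.24 at 2 h (adjusted p = 0.00378) to -0.47 at 8 h, 0.01 at 24 h and -0.59 at 72 h, the last 3 not called. At 72 h it was called under quantile normalization (-0.92, adjusted p = 0.0324). The 2 h call was lost without Treg 2 h number 1 (0.95, adjusted p = 0.15).

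The Treg response of Rgs16 in culture thus lay under that of Tconv, by -2.53 ± 0.36 at 8 h (adjusted p = 0.00069), -2.04 at 24 h (adjusted p = 0.00458) and -2.64 at 72 h (adjusted p = 0.000183). The calls at 8 and 72 h held with any array left out, and that at 24 h was lost without Tconv 24 h number 1 (-1.95) or Treg 24 h number 2 (-1.86), and with the in vitro arrays alone (adjusted p = 0.0704). At 2 h it was -0.81, not called. Of all genes 0.145% were called at 2 h, 0.652% at 8 h, 0.491% at 24 h and 1.79% at 72 h, and of the 4 RGS genes only Rgs16, with 3 calls over the 4 times. Without Tconv 0 h number 2, which leaves the array that stood apart as the only start, there were 7 such calls, the others being Rgs16 (-1.11) and Rgs1 (-2.28) at 2 h, Rgs3 at 24 h (-1.18) and Rgs1 at 72 h (-2.52). Without Tconv 0 h number 1, Rgs2 at 8 h was called (3.07), and without Treg 0 h number 1, Rgs1 at 72 h (-2.69). The direction of the 8 h difference was the same in mice and in culture.

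**Figure D2:**
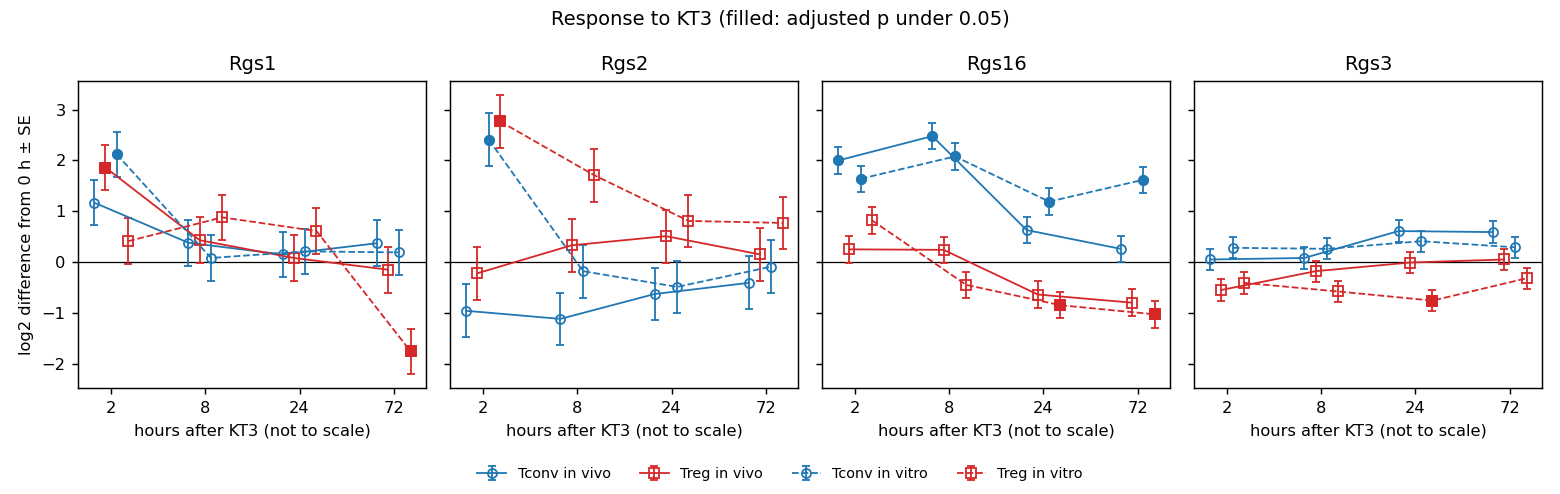
Log2 difference from 0 h (vertical axis, ± SE) at each time (horizontal axis, evenly spaced) in Tconv (blue) and Treg (red), in vivo (solid) and in vitro (dashed). Filled symbols were called; Rgs2 at 2 h lies above 2 in both cell types in culture and under 0 in both in mice, and within each setting the Rgs16 curve of Tconv lies above that of Treg.

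Rgs2 had a called difference between the settings at 2 h in both cell types. In mice no rise was called at 2 h in either. In Tconv in vivo it read 7.33 and 6.89 at 0 h, 6.05 and 6.23 at 2 h, 5.75 and 6.23 at 8 h, 6.27 and 6.68 at 24 h and 6.52 and 6.87 at 72 h. All later arrays lay under both 0 h arrays, but no difference was called (-0.96 ± 0.52 at 2 h, adjusted p = 0.464, and -1.12 at 8 h, adjusted p = 0.141). The 8 h difference was called without in vitro Tconv 0 h number 1, whose group shares the estimate of the spread (adjusted p = 0.041). In Treg in vivo the arrays read 7.39 and 6.82 at 0 h, 7.13 and 6.64 at 2 h, 7.67 and 7.21 at 8 h, 8.35 and 6.88 at 24 h and 7.66 and 6.84 at 72 h. These groups overlapped with 0 h at each time and none was called.

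In culture Rgs2 in Tconv stood at 5.88 and 8.27 at 0 h, a gap of 2.38 between the 2 arrays, and at 9.96 and 9.01 at 2 h. It then read 6.74 and 7.06 at 8 h, 6.54 and 6.63 at 24 h and 6.96 and 7.02 at 72 h. The 2 h arrays thus stood above all others of these cells. The rise was 2.41 ± 0.52 (adjusted p = 0.00242), and it was not called without 0 h number 1 (1.22, adjusted p = 0.193) or 2 h number 1 (1.94, adjusted p = 0.0612). The fall of 2.59 from 2 to 8 h (adjusted p = 0.00155) was lost without 2 h number 1 (-2.11, adjusted p = 0.0601).

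Rgs2 in Treg in culture reached the highest group means of all, at 2 and 8 h. The arrays read 7.78 and 9.08 at 0 h, 11.28 and 11.13 at 2 h, 10.26 and 10.02 at 8 h, 9.49 and 8.99 at 24 h and 9.17 and 9.24 at 72 h. The rise at 2 h was 2.77 ± 0.52 (adjusted p = 0.0011), or 6.82-fold, and was lost without 0 h number 1 (2.12, adjusted p = 0.0724). At 8 h Rgs2 was 1.71 ± 0.52 above 0 h, which was not called (adjusted p = 0.0553), though both 8 h arrays lay above both 0 h arrays. It was called without 0 h number 2 (2.36, adjusted p = 0.0161) and with the replicate block (adjusted p = 0.0416). Of all genes 5.64% were called in Treg in culture at 2 h, 5.61% at 8 h, 5.95% at 24 h and 9.11% at 72 h. Of the 4 RGS genes Rgs2 was called at 2 h, none at 8 h, Rgs3 and Rgs16 at 24 h and Rgs1 and Rgs16 at 72 h.

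Rgs2 did not differ by call between Treg and Tconv in vivo, where the differences were -0.00 at 0 h and 1.45 at 8 h (adjusted p = 0.137). The latter was called with the in vivo arrays fitted alone (adjusted p = 0.0451) and without in vitro Tconv 0 h number 1 (adjusted p = 0.0275). In culture it was higher in Treg by 3.24 ± 0.52 at 8 h (adjusted p = 9.51e-05), 2.66 at 24 h (adjusted p = 0.00136) and 2.22 at 72 h (adjusted p = 0.00585). The calls at 8 and 24 h held with any array left out, and that at 72 h was lost without Tconv 72 h number 1 (2.19, adjusted p = 0.0567) or Treg 72 h number 1 (2.25, adjusted p = 0.0505). The differences at 0 h (1.36, adjusted p = 0.0732) and 2 h (1.72, adjusted p = 0.0775) were not called. The first was called without Treg 0 h number 1 (2.01, adjusted p = 0.0229) or Tconv 0 h number 2 (2.55, adjusted p = 0.000181), and the second without Tconv 0 h number 1 (adjusted p = 0.00965).

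The 2 h response of Rgs2 in vivo minus that in vitro was -3.38 ± 0.74 in Tconv (adjusted p = 0.00898) and -2.99 ± 0.74 in Treg (adjusted p = 0.0197). In Tconv the call was lost without in vitro 0 h number 1 (-2.18, adjusted p = 0.0857) or in vitro 2 h number 1 (-2.90, adjusted p = 0.0741). In Treg it was lost without in vivo 0 h number 1 (-2.71), in vivo 2 h number 2 (-2.74), in vitro 0 h number 1 (-2.34), in vitro 2 h number 1 (-2.91) or in vitro 2 h number 2 (-3.07), with adjusted p up to 0.157. Quantile normalization also ended the Treg call (-2.62, adjusted p = 0.0724). Without the 3 in vitro arrays of narrowest range, an alternative chosen after seeing the data, the Treg value was -2.34 and called. Of all genes the Tconv responses of the settings differed by call in 5.04% at 2 h, 0.491% at 8 h, 1.05% at 24 h and 0.0885% at 72 h. In Treg the shares were 3.68% at 2 h, 0.362% at 8 h, 0.0966% at 24 h and 1.58% at 72 h. No other member and no other time was called in these comparisons, except under alternatives. Without in vitro Tconv 0 h number 2, Rgs2 at 8 h (-2.13) and Rgs16 at 72 h (-1.65) in Tconv were called. Without the 3 narrow arrays, Rgs1 in Treg was called at 2 h (2.18, adjusted p = 0.0314) and 72 h (2.35, adjusted p = 0.0425).

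The moderated F-test of limma, which asks whether any of the 4 responses differs between the settings, called 6.37% of all genes in Tconv and 10.9% in Treg. In Tconv it called Rgs2 (F = 7.16, adjusted p = 0.0155) and Rgs16 (F = 8.21, adjusted p = 0.00815). In Treg it called Rgs1 (F = 5.28, adjusted p = 0.034) and Rgs2 (F = 5.22, adjusted p = 0.0356). With single arrays left out, the Rgs16 call held in 20 of 20 fits and the Rgs2 call in Tconv in 17 of 20. It was lost there without in vivo 2 h number 1 (F = 4.79), in vivo 2 h number 2 (F = 5.33) or in vitro 2 h number 1 (F = 3.95). In Treg the calls held in 8 of 20 fits for Rgs1 and 12 of 20 for Rgs2, so that a majority of arrays could each end the Rgs1 call. Median centring ended both (F = 4.71 and 4.48) and quantile normalization that of Rgs2 (F = 3.76). The lowest F with an array left out was 4.07 for Rgs1, without Treg in vivo 72 h number 2, and 3.32 for Rgs2, without Treg in vivo 2 h number 2.

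**Figure D3:**
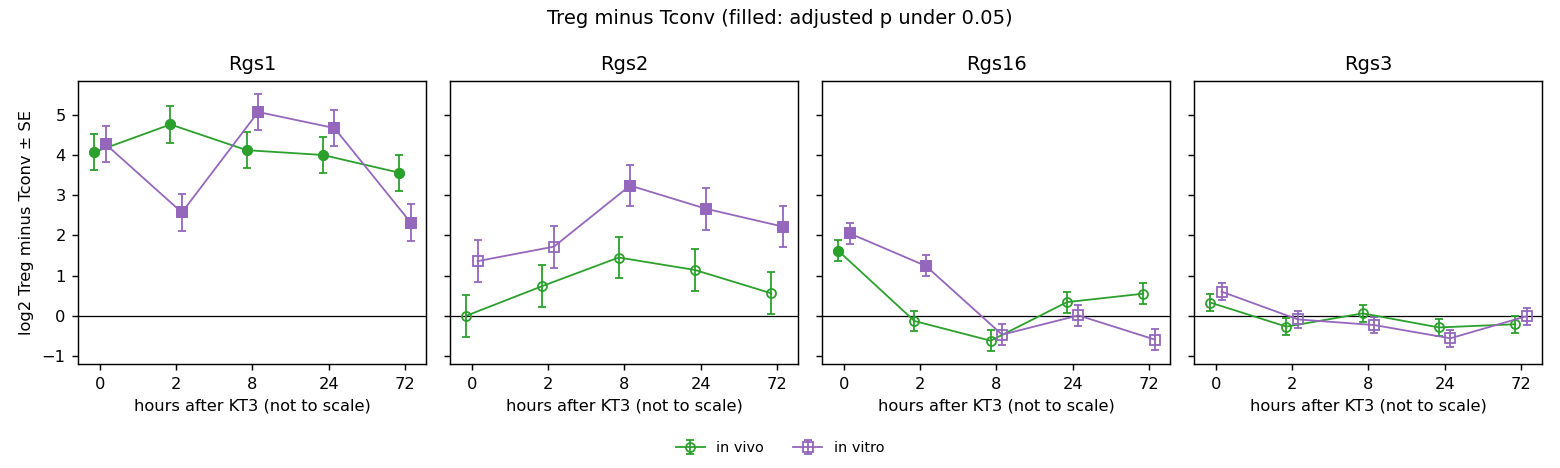
Log2 intensity of Treg minus that of Tconv (vertical axis, ± SE) by hours after KT3 (horizontal axis, evenly spaced), in vivo in green and in vitro in purple, with called differences filled. Rgs1 stays above 2 at all 10 points, Rgs2 departs from 0 only in culture from 8 h on among called points, and Rgs16 goes from 1.62 in vivo and 2.05 in vitro at 0 h to near or under 0 at the end of culture.

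Rgs3 varied least. Over all 42 arrays it lay between 7.87 and 8.99. In Tconv in vivo it read 8.37 and 8.28 at 0 h and 8.91 and 8.96 at 24 h, then 8.85 and 8.99 at 72 h. Both late pairs lay above 0 h, by 0.61 ± 0.21 (adjusted p = 0.209) and 0.59 ± 0.21 (adjusted p = 0.697), and neither was called. In Treg in vivo it read 8.56 and 8.74 at 0 h and 7.87 and 8.33 at 2 h, a difference of -0.55 that was not called (adjusted p = 0.148). In Treg in culture it went from 8.41 and 8.90 at 0 h to 7.90 and 7.89 at 24 h. This was its 1 called response, -0.76 ± 0.21 (adjusted p = 0.0326), and it was lost without 24 h number 1 (-0.76, adjusted p = 0.186), 24 h number 2 (-0.75, adjusted p = 0.129) or 0 h number 2 (-0.51, adjusted p = 0.141). Median centring (-0.61, adjusted p = 0.0727) and the in vitro arrays fitted alone (adjusted p = 0.128) ended it too. Rgs3 was not called between Treg and Tconv at any time, with differences from -0.56 at 24 h to 0.60 at 0 h, both in vitro. The 0 h difference was called without Treg 0 h number 1 (0.85, adjusted p = 0.0211) or Tconv 0 h number 2 (0.62, adjusted p = 0.0404). With the replicate block both differences were called (adjusted p = 0.0315 at 0 h and 0.03 at 24 h, limma). Quantile normalization called the 24 h difference (-0.81, adjusted p = 0.0335) and median centring that at 0 h (0.74, adjusted p = 0.0256). Median centring also called the Tconv response at 24 h in culture (0.58, adjusted p = 0.037). The block also called the Rgs3 step from 8 to 24 h in Tconv in vivo (0.53, adjusted p = 0.0462), as did the in vivo arrays fitted alone (adjusted p = 0.0431). It called the Treg minus Tconv response at 24 h in vitro as well (-1.16, adjusted p = 0.0366). Neither was called in the main fit.

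Rgs3 has a second, dimmer cluster, between 6.38 and 7.38. In Treg the second cluster was also lower at the times named above, at -0.63 against 0 h at 24 h in culture and at -0.57 at 2 h in vivo. In Tconv in culture they differed in sign at all 4 times, the first 0.25 to 0.40 above 0 h and the second at -0.42 to -0.16. With the mean of both clusters, the Treg 2 h response in vivo was -0.56 and called (adjusted p = 0.021, limma). So were the Treg 8 h response in culture (-0.55, adjusted p = 0.0285) and Treg minus Tconv at 24 h in culture (-0.49, adjusted p = 0.0251). The Tconv step from 8 to 24 h in vivo (0.53, adjusted p = 0.0129) and the F-test between settings in Treg (F = 5.05, adjusted p = 0.0404) were called too.

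The single IgG arrays gave Rgs1 at 5.83 in Tconv and 9.06 in Treg, Rgs2 at 7.22 and 6.54, Rgs3 at 8.51 and 8.77, and Rgs16 at 7.03 and 8.80. IgG at 24 h minus 0 h called 0% of all genes in Tconv and 0% in Treg, and no member at an unadjusted p under 0.05. KT3 minus IgG at 24 h called 1.47% of all genes in Tconv and 0.274% in Treg, and of the 4 RGS genes none in either. At an unadjusted p under 0.05 there was 1, Rgs16 in Tconv, 0.83 ± 0.32 higher after KT3 (adjusted p = 0.39, limma). With 1 array, the IgG groups were taken to vary like the others.

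Ordered by group mean, Rgs1 ran from 11.40 in Treg 2 h after KT3 in vivo to 5.47 in Tconv before KT3 in vivo. Its widest gap, 1.03, lay between the lowest in vivo Treg group (IgG, 9.06) and Treg after 72 h in culture (8.03), with all Tconv groups under that. Of the 21 pairs of neighbours in this order, the arrays of 15 overlapped. Neighbours in an order by mean are the groups closest to each other, so such overlap can follow from the ordering alone. The share over all genes is not given, and the overlap counts here are not read as a trait of these genes. Rgs2 ran from 11.20 in Treg after 2 h in culture to 5.99 in Tconv 8 h after KT3 in vivo, with its widest gap, 1.06, between Treg at 2 h and at 8 h in culture, and 16 of 21 neighbours overlapped. Rgs16 ran from 10.05 in Treg after 2 h in culture to 7.03 on the Tconv IgG array, with 17 of 21 overlapping. Rgs3 ran from 8.93 in Tconv at 24 h in vivo to 7.90 in Treg after 24 h in culture, with 19 of 21 overlapping and every gap under 1 SE.

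Over the 22 group means, which share arrays, scale and the cell type contrast, the genes most like Rgs1 by Pearson correlation were Ikzf4 (0.964), Itgb8 (0.953) and Cpd (0.949). Ikzf4 encodes a transcription factor of Treg, Itgb8 an integrin chain and Cpd a carboxypeptidase. Those most like Rgs2 were Dgat1 (0.894), an enzyme of triglyceride synthesis, Dnajc12 (0.889), a co-chaperone, and Neil1 (0.885), a DNA repair glycosylase. Rgs16 was most like Tgif1 (0.805), a homeobox repressor, Nr4a1 (0.793), an immediate early nuclear receptor induced by T cell receptor signals, and Gfi1 (0.790), a transcriptional repressor. Rgs3 was most like Lax1 (0.839), Cotl1 (0.798) and Mkrn1-ps1 (0.779). Among the RGS genes themselves the correlations ran from -0.44 (Rgs2 with Rgs3) to 0.54 (Rgs1 with Rgs2).

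The in vivo arrays of Treg numbered 1 carried more Rgs2 than those numbered 2 at each of the 5 times, by 0.45 to 1.47. They also carried more Rgs18, a family member known from platelets and myeloid cells. Rgs18 read 5.10, 5.94, 5.67, 5.80 and 6.24 on these arrays from 0 to 72 h and at most 3.75 on those numbered 2, and passed the filter on no array. On the same arrays the mean of 5 neutrophil markers was 6.12 to 8.36 on number 1 and 5.18 to 5.54 on number 2, that of 5 macrophage markers 6.08 to 7.37 against 5.37 to 5.68, and that of 4 platelet markers 6.46 to 7.30 against 5.66 to 5.98. In Tconv in vivo these markers were likewise higher on number 1 (neutrophil 6.09 to 7.25 against 5.21 to 5.40, platelet 6.60 to 7.46 against 5.67 to 5.88). Yet Rgs2 was higher on number 1 in 1 of 5 groups there. Rgs18 was higher on number 1 in 5 of 5 Tconv groups too, but only by 0.02 to 0.67, and read at most 4.35. Rgs1 was higher on number 1 in 2 of 5 groups in each cell type in vivo, Rgs16 in 1 of 5 and Rgs3 in 1 of 5 in Tconv and 0 of 5 in Treg. In culture the neutrophil marker mean was 5.17 to 6.49 on all arrays, and Rgs2 was higher on number 1 in 3 of 5 Treg groups and 1 of 5 Tconv groups. The part of these markers in the Rgs2 and Rgs18 values was not tested.

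**Figure D4:**
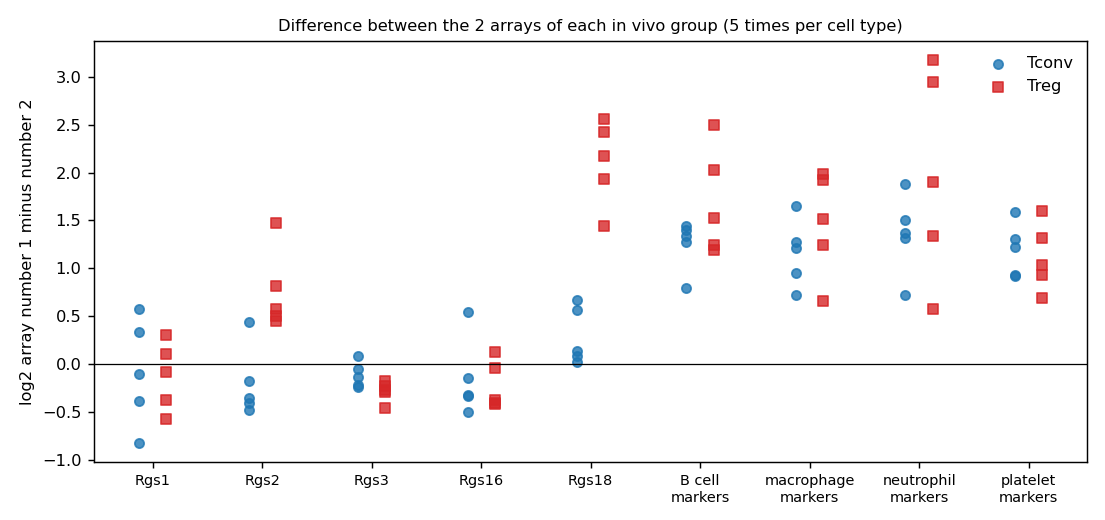
Log2 value on the array numbered 1 minus that on the array numbered 2 (vertical axis) in each in vivo group, for 5 RGS genes and 4 marker means (horizontal axis), with Tconv as blue circles and Treg as red squares, 5 times each. All 40 points of these 4 marker means lie above 0, as do the 5 Treg points of Rgs2 and the points of Rgs18 in both cell types. Rgs1, Rgs3 and Rgs16 scatter around or just under 0. The other marker lists are not shown.

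Of 16 other RGS genes listed, all had a cluster and 6 passed the filter (Rgs8, Rgs9, Rgs11, Rgs12, Rgs14 and Rgs19). Of all 19752 genes, 12425 passed it. Rgs14, a Gi regulator that also binds Ras-family proteins, was the one that changed most often, and it fell. In Treg in culture it read 9.19 and 9.17 at 0 h and 8.00 and 7.84 at 2 h, a fall of 1.26 ± 0.26 (adjusted p = 0.00276). In Tconv in vivo it read 8.89 and 8.88 at 0 h and 7.88 and 7.90 at 8 h, a fall of 0.99 ± 0.26 (adjusted p = 0.00668), and 8.86 and 8.79 at 24 h, back near the start. Both of these calls held with any array left out. It was also called lower in Treg in vivo at 2 h (-1.08) and 8 h (-1.03), in Tconv in culture at 2 h (-0.82) and 8 h (-0.89) and in Treg in culture at 24 h (-0.93) and 72 h (-1.03). Each of these was lost with at least 2 of the 4 arrays left out in turn. Rgs9 was higher in Treg than in Tconv in culture by 1.28 at 2 h and 0.85 at 8 h, both held with any array left out, and in vivo by 0.80 at 8 h, which was lost without 2 of the 4 arrays. Rgs9 rose by 0.71 in Treg at 2 h in culture, and in Tconv at 24 h in culture Rgs8 (-0.88) and Rgs9 (-0.51) fell, which 1 or 2 of the 4 fits with an array left out kept. No other member of the list was called in any response or between Treg and Tconv. The Tconv responses called 21% of all genes at 8 h in vivo. In culture they called 26.3% at 2 h, 18.9% at 8 h and 26.8% at 24 h. The Treg responses called 6.45% and 9.67% at 2 and 8 h in vivo. In culture these were 5.64% at 2 h, 5.95% at 24 h and 9.11% at 72 h. Treg minus Tconv called 3.27% at 2 h and 23.8% at 8 h in culture, and 4.27% at 8 h in vivo.

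Among the receptors whose signals RGS proteins end, 23 were tested, most of them for chemokines or lipids, with the neuropeptide receptor Vipr1 also in the list. In Tconv at 8 h in vivo 2 rose and 8 fell, with a list median of -0.58 against -0.06 over all genes. Ccr8 rose by 3.65, Cxcr5 by 3.01, and S1pr1, the receptor that guides exit from lymphoid organs, fell by 2.79. In Treg at 8 h in vivo 4 rose and 7 fell (median -0.38 against -0.02), with Ccr8 up by 3.47 and the lysophosphatidic acid receptor Lpar6 (-2.27) and Ccr3 (-1.93) down. At 2 h 5 rose and 3 fell in Tconv and 3 rose and 4 fell in Treg in vivo. In culture at 2 h 8 rose and 2 fell in Tconv and 3 rose and none fell in Treg, where Ccr8 rose by 3.39 and Ccr7, the receptor for homing to lymph nodes, by 1.93. Before KT3 in vivo 7 receptors were higher and 3 lower in Treg (median 0.51 against 0.00), with Ccr2 2.70 and Ccr4 2.24 higher and the neuropeptide receptor Vipr1 at -2.69. The values given for these receptors were called with any array left out. Ccr3 was dim, between 4.39 and 7.56 with a median of 5.30 over all arrays. It exceeded the array median on 6 arrays, and its change may be understated. Of all genes, 21% were called in Tconv and 9.67% in Treg at 8 h in vivo, and 3.51% and 6.45% at 2 h. In culture at 2 h the shares were 26.3% in Tconv and 5.64% in Treg. Between the cell types before KT3 in vivo the share was 3.1%.

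Of 8 G protein alpha subunits tested, 3 rose in Tconv and 1 in Treg at 2 h in culture, and none fell there. Of all genes 26.3% were called in that Tconv comparison and 5.64% in that of Treg. In Treg in vivo Gna15, a Gq-class subunit of blood cells, fell by 1.21 at 2 h and 1.01 at 8 h, the 1 called subunit each time. The shares of all genes called at these times were 6.45% and 9.67%. Before KT3 in vivo 2 were higher in Treg and none lower, Gna15 by 1.56 and Gnaq by 0.96, of which the first held with any array left out. There 3.1% of all genes were called. Gna15 read 5.79 to 8.34 with a median of 6.57 over all arrays, and exceeded the array median on 20 arrays. Its differences may be understated where it was dim. Gnaq was 1.77 higher in Treg at 2 h, 1.76 at 24 h and 1.46 at 72 h in vivo, and was not called at 8 h. Of 12 beta and gamma subunits 1 fell in Tconv at 8 h in vivo, Gng2 by 0.98, and none rose. This is a lower share than the 21% of all genes called there.

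Of 4 receptor kinases and arrestins, proteins that silence receptors, 3 fell in Tconv at 8 h in vivo and 2 in Treg, and none rose in either. Grk6 fell by 1.00 in Tconv and Arrb1 by 1.30 in Treg, both with any array left out. Of 19 effectors tested, 9 fell and none rose in Tconv at 8 h in vivo (median -0.56 against -0.06), among them the adenylyl cyclase Adcy7 (-1.35) and the phosphoinositide 3-kinase Pik3cg (-1.24). In Treg at that time 6 fell and none rose (median -0.32 against -0.02), with Adcy7 at -1.13. In Treg in culture at 2 h 2 rose and 1 fell, and the cAMP phosphodiesterase Pde4d rose by 2.09. Before KT3 in vivo Plcb4, a phospholipase that Gq activates, was 1.65 higher in Treg, and Treg minus Tconv of the phosphodiesterase Pde3b was -3.15. Plcb4 was dim, between 5.54 and 7.85 with a median of 6.20 over all arrays. It exceeded the array median on 20 arrays, and its difference may be understated. At 8 h in vivo median centring shifted the all-gene median from -0.06 to 0.10 in Tconv and from -0.02 to 0.03 in Treg, a shift smaller than each list median given for that time. Of all genes, 21% were called in Tconv and 9.67% in Treg at 8 h in vivo, and 5.64% in Treg in culture at 2 h. The remaining shares are those given above.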

How the data were processed

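RNA of sorted Tconv and Treg was measured on 42 arrays in 22 groups, taken from the labels. The authors deposited 1 linear intensity per transcript cluster and array, preprocessed with RMA per the series design text (Affymetrix Power Tools and RMA per the submitters' processing notes). No tool version is given in the sources used here. RMA leaves dim genes near a floor, so their changes are understated. The table held 24922 clusters, of which 21425 had 1 symbol, giving 19752 genes with the highest-mean cluster kept for each.

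Intensities entered as plain log2. The 12425 genes that exceeded their array's median on 2 or more arrays entered limma 3.58.1 (R 4.3.3), with 22 group means estimated together, because most groups hold 2 (20 residual and 5.01 prior degrees of freedom). Moderated two-sided tests with eBayes were adjusted by Benjamini-Hochberg over all genes in each contrast and called under 0.05. A deposited intensity carries no read depth, and the number of arrays limits the precision. The pipeline was tested on simulated data. Motifs were searched on both strands of RefSeq promoters.

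The genes named are the members, the 3 most like each, all tested RGS genes and, from each pathway list, those among the 3 largest called changes of a comparison. Among the most like genes, predicted genes (Gm, Rik), Mir, Snor and T cell receptor or immunoglobulin segments (Trav, Traj, Trbv, Igh, Igk, Igl) were passed over. Rgs18 was named after its values were seen. The values of 1 effector gene are not reported here. The members and lists were chosen with earlier results of these data known. Alternatives were an offset of 16, quantile normalization, median centring, no filter, a filter of 21 arrays, a replicate block, each setting alone, the mean of all clusters, and leaving out single arrays; leaving out 3 narrow-range arrays was added after seeing the data.

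Array numbers were checked as pairs by correlating, across genes, the number 1 minus number 2 differences of every pair of groups. In vivo the 45 correlations ran from -0.17 to 0.78 (median 0.30, 32 over 0.1) and in vitro from -0.45 to 0.71 (median 0.22, 28 over 0.1), so that the numbers were not taken to pair samples across all groups. Within a cell type in vivo they ran together, from 0.65 to 0.78 in Tconv and from 0.41 to 0.70 in Treg, and in vitro the number coincides with sex and age. Results that a replicate block calls are therefore given with it. The block held 1 term per setting, shared by Tconv and Treg. Across the cell types in vivo the median correlation was 0.09, so the block does not model the pairing within each cell type. Python 3.11.15 was used with pandas 2.3.3, numpy 2.4.6 and, for plots, matplotlib 3.10.9.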

Additional observations from a re-analysis of the deposited data

Results flagged for a closer look

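The response of Rgs16 to KT3 differed between the cell types by a test of the difference itself. Treg minus Tconv was -2.24 at 8 h in vivo, and in culture -2.53 at 8 h, -2.04 at 24 h and -2.64 at 72 h. The call at 24 h was lost with some single arrays left out and with the in vitro arrays fitted alone. The others held with any array left out.

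The 2 h response of Rgs2 differed between mice and culture. In vivo minus in vitro it was -3.38 in Tconv and -2.99 in Treg. The F-test over all 4 times gave 7.16 for Rgs2 in Tconv and 5.22 in Treg. The same test gave 8.21 for Rgs16 in Tconv and 5.28 for Rgs1 in Treg. Of these calls only that of Rgs16 held with any array left out. Without in vitro Tconv 0 h number 1 the 2 h value of Rgs2 in Tconv was -2.18. Quantile normalization ended the 2 h Treg call (-2.62, adjusted p = 0.0724, limma). Median centring ended both Treg calls of the F-test (F = 4.71 for Rgs1 and 4.48 for Rgs2).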

How the results depend on the processing

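Of 240 results for the 4 genes, 47 were called. No called result changed direction under any alternative. The counts of called responses in Tconv in vivo (2), of Treg minus Tconv in vivo (6) and in vitro (10), and of steps between times (7) stayed within 1.5 times under every alternative. Called responses of Treg in vivo numbered 1, and 2 with the mean of all clusters (0 to 1 without single arrays). In Tconv in vitro there were 6, and 3 without the 0 h array numbered 1 (3 to 6). In Treg in vitro there were 5, with 3 under median centring and 2 with each setting fitted alone (3 to 6). Differences of response between Treg and Tconv in vivo numbered 1, and 2 with the replicate block, without the in vitro Tconv 0 h array numbered 1 or without the 3 narrow arrays (1 to 2). In vitro there were 3 (2 to 7, the highest without Tconv 0 h number 2). Differences between settings by F-test numbered 2 in Tconv (1 to 2) and 2 in Treg, with 1 under quantile normalization and 0 under median centring (0 to 2). The replicate block kept all 47 calls and added 7. The offset of 16, the mean of all clusters and the filter of 21 arrays also kept all 47 calls. The offset added 3 calls, the mean of all clusters 5, quantile normalization 4, median centring 2 and each setting alone 4. Leaving out the Tconv 0 h array or the 3 narrow arrays added calls too. No filter ended 3, quantile normalization 3, median centring 6, each setting alone 5 of 41, the Tconv 0 h array left out 4 and the 3 narrow arrays left out 5. The cause of these changes was not tested. With 2 arrays in most groups precision is limited throughout, and Rgs1 in Tconv lay near or under the array median, where changes may be understated, except on the in vitro 2 h array numbered 1 (8.52).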
